A study of Mus musculus with 6 samples.

Results

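RNA levels were compared directly between a pair of libraries from mouse F9 cells in retinoic acid (RA). The shCtbp2_RA library came from the line whose short hairpin RNA targets the corepressor Ctbp2, and the shRxr_RA library from the line whose hairpin targets the retinoid X receptor. Genes entered the comparison when their mean level over the 6 libraries of the series was at least 20 normalised reads (reads per 10000000 counted in genes), which kept 12332 of the 25904 deposited genes. Just inside that minimum was Trim21 (19.8 normalised reads in shCtbp2_RA and 25.1 in shRxr_RA), and just outside it was Vstm2a (2.97 and 14.1).

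F9 is a mouse teratocarcinoma line whose cells differentiate towards primitive endoderm under RA. The serum of all cultures had been charcoal-stripped, which removes retinoids. The RA cultures were harvested after 48 hours in 1 µM all-trans RA, and the untreated cultures of the same lines, shCtbp2_UT and shRxr_UT, received none. The labels name neither the retinoid X receptor gene that the hairpin targets nor the number of hairpins or clones behind a line, and no replicate culture. Each group is therefore 1 library: the difference in RA has no replicate check and no p-value, and the intervals given with folds are 95% intervals for counting error alone. Genes were counted as different when the difference was at least 2-fold on the log2(normalised reads + 10) scale, which understates differences between low genes. Folds themselves are plain ratios of the levels.

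RA acts through RA receptors, which sit on DNA as partners of retinoid X receptors. Without ligand the pair holds corepressor complexes on its target genes, and with ligand these are exchanged for coactivators. Ctbp2 is a corepressor of another kind: it is brought to DNA by sequence-specific repressors, such as zinc finger proteins, and brings histone deacetylases and demethylases with it. In F9 cells RA is known for switching on its own breakdown enzymes and Hox genes, and later basement membrane genes of the endoderm.

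In RA, 3471 genes (28.1% of those tested) differed by 2-fold or more: 726 (5.89%) stood higher in shCtbp2_RA than in shRxr_RA and 2745 (22.3%) lower. At least 4-fold differences were fewer, with 44 genes higher (0.357%) and 108 lower (0.876%). The same lines untreated differed in 660 genes (5.35%), with 217 higher in shCtbp2_UT (1.76%) and 443 lower (3.59%). The RA libraries hold similar depth, 10103347 reads counted in genes for shCtbp2_RA and 9955808 for shRxr_RA, so that 1 read is worth 0.99 and 1.00 normalised reads. The median log2 difference over all genes tested was -0.08.

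The shCtbp2_RA library stands apart in base composition, and this bears on every count in RA. Across the 12133 genes with an annotated transcript, the RA difference had a Spearman correlation of 0.67 with the GC content of the longest transcript and of -0.48 with its length. The untreated difference had correlations of -0.15 and -0.05. In the fifth of genes with the lowest GC content, 59.5% were at least 2-fold lower in shCtbp2_RA and 0.247% higher; in the fifth with the highest, 1.07% were lower and 15.6% higher. Taken library by library, the deviation from the mean of the 6 libraries correlated with GC content at 0.65 in shCtbp2_RA, 0.25 in shGFP_RA (the RA library of the control line), -0.42 in shRxr_RA and between -0.44 and -0.40 in the 3 untreated libraries. These are descriptions across genes of the same libraries, and genes are not independent replicates. With 1 library a side, the hairpin and the composition of the library cannot be told apart.

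**Figure D1:**
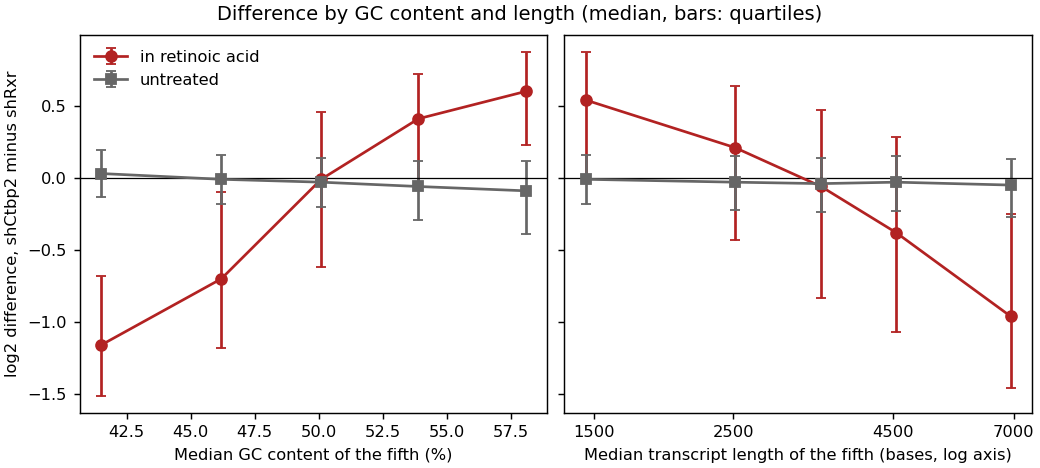
Median log2 difference between the shCtbp2 and shRxr lines (vertical axis) in quintiles of the genes by GC content (left, percent) and by length of the longest transcript (right, bases, log axis), in RA (red circles) and untreated (grey squares). Bars span the lower to upper quartile of genes; in RA the medians run from -1.16 to 0.60 over the GC quintiles, and untreated from 0.03 to -0.09.

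For this reason many differences in RA are given beside the value left after a smooth fit on GC content and length. That value is called the corrected difference. Differences in RA given without it are uncorrected. The fit held 57.1% of the variance of the RA difference. After it, 1010 of 12133 genes (8.32%) differed by 2-fold or more, 425 (3.5%) higher and 585 (4.82%) lower. Of the genes counted before the correction, 166 of the higher (22.9%) and 371 of the lower (13.5%) were counted again in the same direction. By its construction the fit also removes any difference between the cells that follows GC content or length. How the called genes split depends on the scaling as well. Of all genes called in RA, 20.9% were higher at the deposited scale, 36.5% after scaling to equal upper quartiles, 32.5% after scaling by the median of ratios and 42.1% after the correction. These scalings put the median difference of all genes at 0.06 and 0.03.

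The targeted genes were low in the library of their own hairpin. Ctbp2 (ENSMUSG00000030970, mm9 coordinates chr7:140179246-140316037) had 55.4 normalised reads in shCtbp2_RA and 1132 in shRxr_RA, and untreated 210.1 and 1632. It was 20.4-fold lower in RA (15.6 to 27.2) and 7.77-fold lower untreated (6.81 to 8.89), the lowest of all tested genes before (log2 difference -4.13) and after the correction (-4.56). Of the retinoid X receptor genes, Rxra (ENSMUSG00000015846, chr2:27531960-27618477) stood at 820.5 in shCtbp2_RA and 82.4 in shRxr_RA, and untreated at 372.2 and 73.7. It was 9.96-fold higher in shCtbp2_RA (7.93 to 12.7) and 5.05-fold higher untreated (4.01 to 6.43). Rxrb stood at 1085 and 546.4 in RA and at 657.6 and 637.8 untreated, with a log2 difference in RA of 0.98 that was 0.27 after the correction. Rxrg, at 10.9 and 8.04 normalised reads in RA, was below the minimum. The paralog Ctbp1 stood at 2155 in shCtbp2_RA against 1255 in shRxr_RA, a log2 difference of 0.78 that was 0.30 after the correction. Among the RA receptors themselves, Rara (0.44, corrected -0.14) and Rarg (0.77, corrected 0.13) were within 2-fold.

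Outside Ctbp2 and the retinoid X receptor genes, the highest genes in shCtbp2_RA had varied roles. Where the mean level reached 50, Cndp2, a cytosolic dipeptidase (ENSMUSG00000024644), was the highest on the log2(normalised reads + 10) scale, on which genes are ordered here, at 7951 normalised reads against 813.6, a 9.77-fold difference (9.09 to 10.5). Untreated it stood at 1755 and 1358, so most of its difference was seen in RA alone. Tlx2, a homeobox gene, was similar in this respect, at 250.4 against 20.1 in RA and at 3.31 and 11.7 untreated. Lgals3, which encodes the lectin galectin-3 (378.1 and 38.2), the keratin gene Krt17 (261.3 and 27.1) and Atp2a3, which pumps calcium into the endoplasmic reticulum (1465 and 181.8), were between 8.06-fold and 9.91-fold higher. Krt8 (2408 and 332.5) was 7.24-fold higher (6.46 to 8.15), and it was joined by Cyp2s1, a cytochrome P450, by Ckmt1, a mitochondrial creatine kinase, by Myl7, a myosin light chain, by Ggt1, which cleaves glutathione, and by Gpx2, a glutathione peroxidase. The corrected log2 differences of these 12 genes, Rxra included, were between 1.62 (Myl7) and 2.88 (Rxra).

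The lowest genes after Ctbp2 were mostly long transcripts of low GC content. Rfx3, a transcription factor of ciliated cells, stood at 27.7 against 206.9 (7.47-fold lower, 5.02 to 11.5). Atrx, a chromatin remodeller, stood at 829.4 against 4364 (5.26-fold lower, 4.89 to 5.67). Gpr98, an adhesion receptor, Eml5, Ptar1, 4932438A13Rik, B230354K17Rik, Ash1l, a histone methyltransferase, Armcx4 and Gm608 had log2 differences between -2.48 and -2.32. Their GC contents were between 39.5% and 50.5%, where the tested genes have a median of 50.1%. After the correction, the log2 difference of Atrx was -0.76, that of Rfx3 -0.97 and that of Ptar1 -0.65, while Armcx4 (-1.83), Gpr98 (-1.09) and Gm608 (-1.02) stayed at least 2-fold lower. B230354K17Rik had no GC value.

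**Figure D2:**
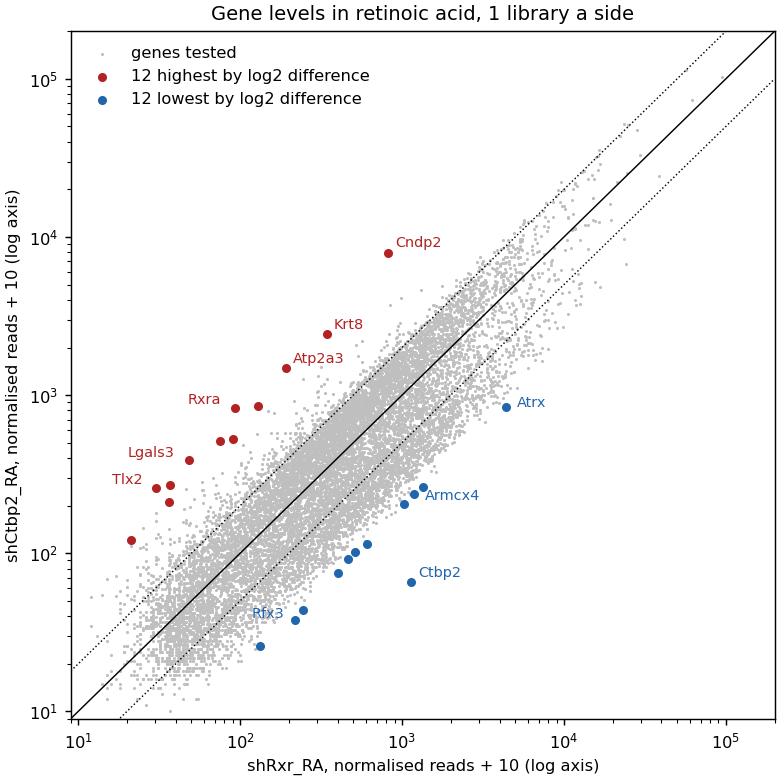
Level of each tested gene in shRxr_RA (horizontal) and shCtbp2_RA (vertical), in normalised reads + 10 on log axes; the solid line marks equal levels and the dotted lines 2-fold. Red and blue points are the 12 highest and 12 lowest genes with a mean of at least 50, and Ctbp2, at 55.4 against 1132 normalised reads, lies farthest below the line.

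Genes of the RA response differed in both directions. For 2 of them the upstream window holds the response element through which RA receptors are known to act, a direct repeat of 2 receptor half-sites spaced by 5 bases (DR5). The windows are the 250 bases before the start site, from RefSeq on GRCm38.p6 (chr19:37697558-37697807, plus strand, and chr14:16575477-16575726, minus strand), printed 5′ to 3′ in the direction of the gene with the DR5 match in capitals. They are shown because these genes carry the same kind of element and stood on opposite sides of the comparison.
Cyp26a1: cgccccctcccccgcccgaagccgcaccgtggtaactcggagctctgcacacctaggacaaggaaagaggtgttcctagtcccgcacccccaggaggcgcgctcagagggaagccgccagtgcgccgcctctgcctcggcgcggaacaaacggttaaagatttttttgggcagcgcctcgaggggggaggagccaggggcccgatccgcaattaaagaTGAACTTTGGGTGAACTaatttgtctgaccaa
Rarb: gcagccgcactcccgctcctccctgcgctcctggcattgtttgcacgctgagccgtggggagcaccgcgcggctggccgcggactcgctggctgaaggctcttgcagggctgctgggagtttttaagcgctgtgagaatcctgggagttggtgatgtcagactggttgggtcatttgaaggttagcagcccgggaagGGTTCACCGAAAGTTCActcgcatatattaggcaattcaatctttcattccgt
A DR5 match on either strand was found in 0.0883% of all 32851 promoter windows of this length, and by gene in 28 of 27025. Of the 12 tested RA-response genes with a window in the RefSeq table only these 2 had one. A match describes letters in this window and does not say which factor binds there.

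Cyp26a1, which breaks RA down (ENSMUSG00000024987, mm9 chr19:37772298-37776018), reached 2064 normalised reads in shCtbp2_RA and 509.3 in shRxr_RA. It was 4.05-fold higher in shCtbp2_RA (3.68 to 4.47), with a corrected log2 difference of 1.35. Untreated it was near the floor of 3 reads in both lines, at 4.96 and 4.19. Rarb, itself a receptor for RA (ENSMUSG00000017491, mm9 chr14:17263356-17651381), stood at 145.5 in shCtbp2_RA and at 301.3 in shRxr_RA. It was 2.07-fold lower (1.70 to 2.54), with a log2 difference of -1.0 before and -0.80 after the correction.

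The differences of at least 4-fold included genes of retinoid uptake and breakdown. Stra6, the receptor for retinol uptake, stood at 1252 in shCtbp2_RA and 234 in shRxr_RA (5.35-fold higher, 4.65 to 6.18), against 0.83 and 1.67 untreated. Cyp26b1, the paralog of Cyp26a1, stood at 273.2 and 48.2 (5.67-fold, 4.16 to 7.87), against 4.14 and 3.35 untreated. Both genes were low in both untreated libraries relative to shCtbp2_RA, and their corrected log2 differences were 1.82 and 1.94. Zfp703, a transcriptional regulator, was 3.91-fold higher (2177 and 556.5, corrected 1.32). The homeobox gene Cdx1 (1542 and 763.4) was 2.02-fold higher, with a corrected difference of 0.17.

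Other members of the list were close between the lines. Stra8, a gene of the meiotic programme, stood at 4587 and 4259 in RA, a 1.08-fold difference (1.03 to 1.12), although untreated it stood at 13.2 in shCtbp2_UT and 192.5 in shRxr_UT, a 14.6-fold difference (8.77 to 25.9) in the other direction. Tgm2 and Crabp1 were likewise at least 2-fold lower in shCtbp2_UT than in shRxr_UT and within 2-fold in RA. Cdx1 was at least 2-fold lower untreated, at 14.1 and 60.3, and higher in RA. Nrip1, a receptor corepressor that RA induces, stood at 562.2 in shCtbp2_RA and 1499 in shRxr_RA (2.67-fold lower, 2.42 to 2.94), with a corrected log2 difference of -0.09.

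Of the 24 listed genes of direct RA response and retinoid metabolism, 20 passed the minimum. Among all genes tested 5.89% were at least 2-fold higher in RA and 22.3% lower, and untreated 1.76% and 3.59%. Of the 20 listed genes, 6 were at least 2-fold higher in RA and 2 lower, and untreated none was higher and 5 were lower. Their median log2 difference was 0.21 in RA and -0.11 untreated, against -0.08 and -0.03 for all genes tested. After the correction 5 were at least 2-fold higher (Stra6, Cyp26b1, Cyp26a1 and Zfp703 among them) and 1 was lower (Crabp1, -1.35), with a median of 0.08. Whether a difference in RA differs from that untreated could not be tested, since a model with both terms leaves no residual.

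**Figure D3:**
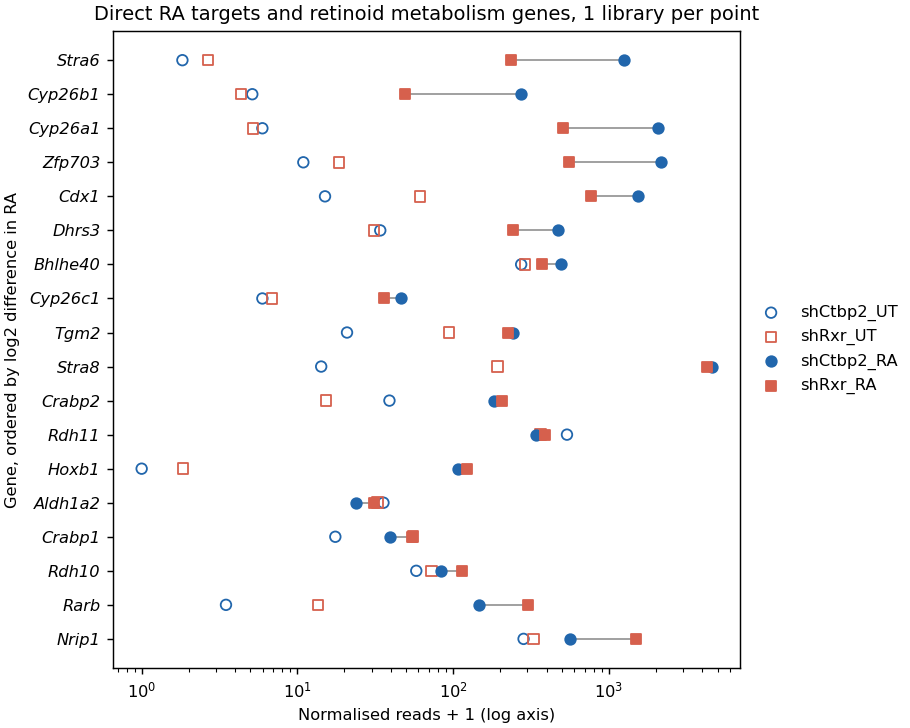
Levels of 18 tested RA targets and retinoid metabolism genes in normalised reads + 1 (log axis), in shCtbp2 (blue circles) and shRxr (red squares), untreated (open) and in RA (filled); grey lines join the RA libraries. Stra6, Cyp26b1, Cyp26a1 and Zfp703 are higher in shCtbp2_RA by 3.91-fold to 5.67-fold, and Rarb and Nrip1 are lower.

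Of the Hox genes, the homeobox genes that give position along the body axis, most tested members were within 2-fold in RA. Over all genes tested, 5.89% were at least 2-fold higher in RA and 22.3% lower. Of the 15 anterior members 10 passed the minimum, and 1 was at least 2-fold higher: Hoxb5, at 101.9 in shCtbp2_RA and 39.2 in shRxr_RA (2.60-fold, 1.78 to 3.87; corrected log2 difference 0.73). Of 24 posterior members 9 passed, with Hoxb6 at 103.9 and 27.1 (3.83-fold, 2.49 to 6.09; corrected 0.94) and Hoxd9 at 98.0 and 37.2 (2.64-fold, 1.79 to 3.96; corrected 0.42) at least 2-fold higher. Hoxb5 and Hoxb6 had no read in either untreated library of the pair, while Hoxd8 and Hoxd9 were already higher in shCtbp2_UT, at 43.8 each against 6.70 and 5.86. Hoxb1, the 3′ gene that responds early to RA, stood at 105.9 and 122.5, and Hoxa3 at 209.8 and 208.9. The lists' median differences were 0.15 and 0.17 before the correction and -0.34 and -0.45 after it. After the correction 1 posterior member was at least 2-fold lower (-1.01), and no member of either list was at least 2-fold higher. Their cofactor Meis2 (252.4 and 618.7) was at least 2-fold lower, with a corrected difference of -0.21.

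Keratins and epithelial junction genes included several of the largest differences. Of 23 tested members 7 were at least 2-fold higher and 2 lower, with a median log2 difference of 0.32, and untreated 6 were higher and none lower, with a median of 0.41. Among all genes tested 5.89% were higher and 22.3% lower in RA, and untreated 1.76% and 3.59%. Krt8 and Krt18 encode the keratin pair of simple epithelia. Krt8 (mm9 chr15:101827142-101834773) had 1751 normalised reads in shCtbp2_UT and 303.8 in shRxr_UT, so it was high in both shCtbp2 libraries. Krt18 stood at 293 and 83.4 in RA (3.51-fold, 2.75 to 4.54) and at 60.4 and 45.2 untreated, where the interval of its fold, 0.927 to 1.94, spans 1. The claudin gene Cldn3 (141.5 and 38.2), the tight junction gene Tjp3 (107.9 and 39.2), the plakophilin gene Pkp3 (370.2 and 158.7) and Jup, which encodes plakoglobin (3143 and 1419), were between 2.21-fold and 3.71-fold higher. E-cadherin, encoded by Cdh1, stood at 8021 and 6810. Tjp1, a tight junction scaffold, stood at 1053 and 3633, and Grhl2 at 8.91 and 29.1. After the correction 2 members, Krt8 (2.07) and Krt17 (2.01), were at least 2-fold higher and none lower.

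CtBP proteins are known to be brought to DNA by E-box binding repressors such as Zeb1, whose E-box has the core CACCTG. The 250-base upstream windows of Krt8 (chr15:102004343-102004592, minus strand) and Lgals3 (chr14:47373610-47373859, plus strand) are shown with each CACCTG or its reverse complement in capitals. Both genes were high in both shCtbp2 libraries, and a window was shown only where it holds a match.
Krt8: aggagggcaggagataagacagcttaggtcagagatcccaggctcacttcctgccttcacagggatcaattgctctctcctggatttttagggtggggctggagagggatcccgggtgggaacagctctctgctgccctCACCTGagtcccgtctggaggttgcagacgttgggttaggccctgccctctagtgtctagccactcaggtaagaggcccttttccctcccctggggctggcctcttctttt
Lgals3: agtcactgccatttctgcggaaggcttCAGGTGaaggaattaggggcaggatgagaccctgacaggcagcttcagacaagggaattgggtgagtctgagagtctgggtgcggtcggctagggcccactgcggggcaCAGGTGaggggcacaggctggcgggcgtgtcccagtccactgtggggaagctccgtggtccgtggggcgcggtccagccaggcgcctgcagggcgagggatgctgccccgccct
CACCTG on either strand was found in 17.2% of all promoter windows of this length, and by gene in 5252 of 27025. It was found in 6 of 21 windows (28.6%) of the genes called higher by limma over both treatments (described further on). By gene it was found in 6 of the 17 with a window, Krt8 and Lgals3 among them, and not in the others. Windows of the genes called lower were not counted, so the calls have no comparison by direction. It was found in 3 of 19 windows (15.8%) of the RA-response genes. It was found in 10 of the 16 windows (62.5%) of keratin and junction genes, since a gene can have several, and in those of 9 of the 13 tested keratin and junction genes with an entry (Cldn4, Cldn6, Cldn7, Epcam, Grhl3, Krt18, Krt8, Ocln and Tjp3), of which Krt8, Krt18 and Tjp3 were at least 2-fold higher in RA and Grhl3, Ocln, Cldn4, Cldn6, Cldn7 and Epcam within 2-fold. The motif was chosen with these values known, the windows are a description, and binding was not measured here. Zeb1 itself stood at 143.5 in shCtbp2_RA and 481.1 in shRxr_RA (log2 difference -1.68, corrected -0.83), and at 229.1 and 324.7 untreated. The mesenchymal list gave 2 of 9 tested genes higher, Vim (5914 and 2547, corrected 1.57) and Snai1 (566.1 and 209.9, corrected 0.53), and 1 lower, Zeb1. Among all genes tested 5.89% were higher and 22.3% lower.

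Endoderm genes, which F9 cells switch on in RA, were spread on both sides. Over all genes tested, 5.89% were at least 2-fold higher in RA and 22.3% lower. Of 12 regulators of primitive endoderm, 3 were at least 2-fold higher, among them Foxq1 (230.6 and 63.3; 3.64-fold, 2.75 to 4.89) and Foxa2 (102.9 and 43.2; 2.38-fold, 1.66 to 3.48). Both are transcription factors, and each was at or below 4.96 normalised reads in both untreated libraries. After the correction 2 members were at least 2-fold higher, with Foxq1 at 1.43. The endocytic receptor Lrp2 (392.9 and 1515) and the growth factor receptor Pdgfra (110.9 and 259.1) were lower, by corrected differences of -0.92 and -0.45. Gata6, a master regulator of the lineage, stood at 435.5 and 447, and Gata4 at 805.7 and 452.

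The list of parietal endoderm and basement membrane genes gave 4 of 20 tested members higher and 2 lower. Over all genes tested the shares were 5.89% and 22.3%. Col4a2, a collagen IV chain, stood at 6797 and 3092 (2.20-fold, 2.11 to 2.30; corrected 1.00) and the keratin genes Krt8 and Krt18, which are also on this list, were counted above. Fst, which encodes the activin antagonist follistatin, stood at 11.9 and 74.3 (6.26-fold lower, 3.38 to 12.7; corrected -1.35). The laminin genes Lama1 (2501 and 2078), Lamb1 (1303 and 1441) and Lamc1 (4660 and 7047) were within 2-fold. The visceral endoderm gene Amn, the membrane anchor of a vitamin B12 receptor, stood at 150.4 in shCtbp2_RA and 20.1 in shRxr_RA (7.49-fold, 4.68 to 12.6; corrected 1.57), and at 59.55 and 25.95 untreated. Other defining visceral genes were near 0: Afp had no read in any of these 4 libraries, and Ttr and Apoa1 had 1 read each in shCtbp2_RA and none in shRxr_RA.

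Pluripotency genes, which keep the undifferentiated state, all passed the minimum, with 3 of 30 at least 2-fold higher and 6 lower and a median of -0.33, where 5.89% of all tested genes were higher and 22.3% lower. The sum of the defining markers Pou5f1, Sox2, Nanog and Utf1 was 35450 normalised reads in shCtbp2_RA and 24374 in shRxr_RA, and untreated 32821 and 33280. Most of that sum is Pou5f1, at 26185 and 13335, whose log2 difference of 0.97 was 0.11 after the correction. Sox2 went the other way, at 1597 and 3107 (1.95-fold lower, 1.83 to 2.07; corrected -1.25). Zfp42, also called Rex1, stood at 2129 and 6197 (2.91-fold lower, 2.77 to 3.06; corrected -1.34), against 8730 and 8980 untreated. L1td1, an RNA-binding protein of stem cells, stood at 1380 and 4682 (3.39-fold lower, 3.20 to 3.61; corrected -1.57). After the correction 6 members were at least 2-fold lower (L1td1, Zfp42, Sox2, Trim71, Klf4 and Tcf15) and none higher. Nanog was close, at 5868 and 6930.

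Markers of other cell types that such a culture could hold were compared by their summed levels. The summed level of 4 fibroblast markers was 18.8 in shCtbp2_RA and 18.1 in shRxr_RA, with Col3a1 at 0 in both and Dcn at 0 in the first, that of the 3 measured trophoblast markers 46.5 and 51.2, and that of 4 primitive endoderm markers 1413 and 1199. The 3 measured neural markers summed to 1284 and 1017, nearly all of it Tubb3, and the 2 measured blood and immune markers to 95.0 and 96.4, all of it Cd68, with Ptprc at 0 in both. In the longer lists for fibroblasts and for blood and immune cells, 4 of 11 and 1 of 8 measured genes were tested and none reached 2-fold in RA. Fbln1, a matrix protein on the fibroblast list, had the highest level of these, 2069 in shCtbp2_RA and 1321 in shRxr_RA. In bulk RNA fewer cells of a type and less RNA per cell cannot be told apart, and this holds for every list here.

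Imprinted genes, which are expressed from 1 parental copy, had mostly lower levels in shCtbp2_RA, where 6512 of all 12332 genes had a lower level. At least 2-fold lower were 22.3% of all genes tested, and 5.89% were higher. All 9 tested maternally expressed members had a lower level, 4 of them by at least 2-fold, with a median log2 difference of -0.83 (-0.90 after the correction, for 7 with a GC value). Meg3, a long noncoding RNA (mm9 chr12:110779211-110809936), stood at 40.6 in shCtbp2_RA and 238.1 in shRxr_RA (5.87-fold lower, 4.20 to 8.39), and untreated at 81.9 and 262. Its neighbour Rian stood at 84.1 and 402.8 in RA (4.79-fold lower, 3.78 to 6.12) and at 114.1 and 380 untreated. Of 14 tested paternally expressed members 7 were at least 2-fold lower and 1, Dio3, higher (107.9 and 29.1). The growth factor gene Igf2 stood at 144.5 and 573.5 (3.97-fold lower, 3.30 to 4.79; corrected -2.19), Plagl1, a zinc finger factor, at 83.1 and 346.5 (4.17-fold lower; corrected -1.20), and Peg3 at 316.7 and 1609 (5.08-fold lower; corrected -1.29). Nnat was 16.8 and 67.3, with a corrected difference of -2.40. In this list Ndn (1.08) and Snrpn (1.13) were at least 2-fold higher after the correction and within 2-fold before it.

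Of the lists of chromatin regulators, those of nuclear receptor coregulators and of Polycomb repressive complex 2 had low medians, and that of the NuRD deacetylase complex did not. Among all genes tested 22.3% were at least 2-fold lower in RA and 5.89% higher. Of 19 coactivators and corepressors of nuclear receptors 11 were at least 2-fold lower and none higher, with a median of -1.23. They include the corepressor Ncor1 (1963 and 7303; 3.72-fold lower, 3.54 to 3.91) and the acetyltransferases Ep300 (980.9 and 2845) and Crebbp (620.6 and 1786). Untreated none of the 19 differed by 2-fold, and their median was -0.05. Of 11 members of Polycomb repressive complex 2, which methylates histone H3, 7 were at least 2-fold lower, with a median of -1.18; Suz12 stood at 1149 and 3739 and Ezh2 at 513.7 and 1327. After the correction the medians were -0.31 and -0.54, and in each list 1 member was at least 2-fold lower, Ncor1 (-1.06) and Eed (-1.12). Rbbp4, a histone-binding subunit of both the Polycomb and the NuRD complex, was at least 2-fold higher after it (1.24) and stood at 5561 and 4067. The median GC contents of these lists, 48.4% and 45.2%, were below the 50.1% of all genes tested, and the median length of the coregulators was 7430 bases. In the fifth of genes with the longest transcripts, from 5381 bases, 48.3% were at least 2-fold lower. The part of base composition in these lists was not tested beyond the correction.

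Members and partners of the CtBP complex gave 2 of 21 tested genes higher and 5 lower, Ctbp2 included, where 5.89% and 22.3% of all tested genes were. Zfpm1, a zinc finger cofactor of GATA factors, was among the higher ones, at 611.7 and 277.2 (corrected 0.59). Hdac2 stood at 716.6 and 1949 (corrected -0.63), while Hdac1 (397.9 and 400.8) and Kdm1a (1308 and 1422) were within 1.09-fold. Of 13 members of the NuRD complex 4 were at least 2-fold lower and none higher, with a median of -0.01, and after the correction 2 were lower and 1 higher, with a median of -0.25. The lowest after the correction was Chd3, which stood at 228.6 and 695.1 in RA and at 142.3 and 519.8 untreated, with a corrected difference of -1.53.

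Lists of ribosomal, respiratory chain and glycolysis genes had medians above 0 in RA. Over all genes tested, 5.89% were at least 2-fold higher and 22.3% lower. Of 29 ribosomal protein genes 8 were at least 2-fold higher and 1, Rpl5, lower, with a median of 0.95 that was 0.20 after the correction. Reads of these genes are uncertain, since near-identical processed pseudogenes can share them. Of 18 nuclear genes of the respiratory chain 5 were at least 2-fold higher and 1 lower, with a median of 0.84 (0.50 after the correction); Uqcrc1, a subunit of complex III, stood at 7482 and 3034. The 14 mitochondrially encoded genes tested were within 2-fold, between -0.68 and 0.23, with a median of -0.08. Glycolysis and hypoxia genes had a median of 0.63 (0.13 after the correction). In one-carbon metabolism the betaine pathway genes Bhmt2 (227.6 and 73.3) and Dmgdh (367.2 and 102.5) were higher in RA by 3.11-fold and 3.58-fold and untreated by 6.404-fold and 11.1-fold.

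Growth control genes are read against all genes tested, of which 5.89% were higher and 22.3% lower. Of 20 p53 targets and cell cycle inhibitors 6 were at least 2-fold lower and none higher; Mdm2, which marks p53 for breakdown, stood at 546.4 and 2248 (4.11-fold lower, corrected -1.60), and Rb1 at 52.5 and 261.2 (corrected -1.06). Cdkn1a, a classic p53 target, stood at 934.3 and 619.7. Of 26 cell cycle genes 1, Ccne1, was higher and 4 were lower, with a median of -0.17 that was 0.05 after the correction. Signalling lists had medians between -0.36 (Wnt) and -0.08 (FGF); their largest differences included Bmpr1a (454.3 and 1501, corrected -0.46), Gli3 (137.6 and 466.1, corrected -0.92), Sfrp1, a secreted Wnt antagonist (863.1 and 2182, corrected -1.30), and Wnt6 (161.3 and 53.2, corrected 0.65).

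**Figure D4:**
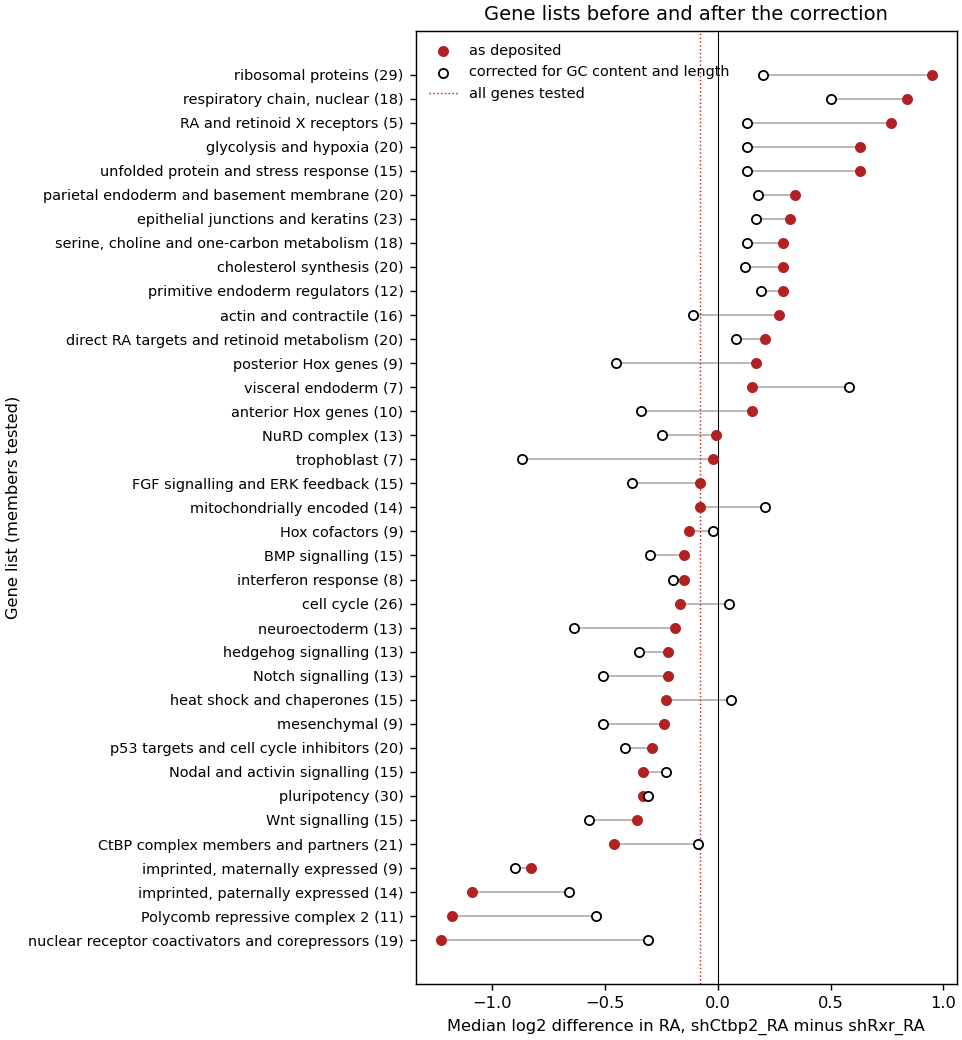
Median log2 difference in RA, shCtbp2_RA minus shRxr_RA, of each gene list with at least 5 tested members (number in brackets), before (red) and after (open) correcting for GC content and length; the dotted line is the median of all genes tested. Ribosomal proteins move from 0.95 to 0.20 and nuclear receptor coregulators from -1.23 to -0.31, while maternally expressed imprinted genes stay near -0.83.

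A test was possible only over both treatments, with the untreated and RA libraries of a line standing in as replicates and the shGFP libraries adding to the estimate of the spread. The limma trend model gave 19 genes higher in the shCtbp2 line than in the shRxr line (0.154% of those tested) and 8 lower (0.0649%) at an adjusted p under 0.05. The 19 genes were, beside Rxra, Krt8, Krt17, Lgals3, Atp2a3, Cyp2s1, Ckmt1, Myl7 and Gpx2 named above, Capn5, Serpinb6c, Atp6v0a4, Dmgdh, Anxa2, Emp2, Grin1, Chga, Klk11 and Plac8. Atp2a3 (1695 and 345.7 untreated) had a log2 difference of 2.60 (SE 0.33, limma adjusted p 0.012), and Krt8 one of 2.65 (SE 0.38, adjusted p 0.016). Capn5, a calpain protease, stood at 783.9 and 138.6 in RA and at 617.9 and 93.7 untreated, with a log2 difference of 2.51 (SE 0.36, limma adjusted p 0.016). Serpinb6c, a serine protease inhibitor gene, stood at 99.97 and 15.1 in RA and at 324.2 and 25.9 untreated.

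The 8 lower genes were Ctbp2, Tro, Mtap7d2, Plagl1, Rian, Meg3, Nhs and Fam171b. Ctbp2 had a log2 difference of -3.51 (SE 0.36, limma adjusted p 0.0024). Tro, which encodes trophinin, stood at 160.3 and 783.5 in RA and at 135.7 and 518.9 untreated (log2 difference -2.04, SE 0.35, adjusted p 0.035). Mtap7d2, a microtubule-associated protein gene, stood at 76.2 and 336.5 in RA and at 77.8 and 332.3 untreated. In all 27 genes both untreated and RA libraries showed the direction. The test favours this by construction, since its residual spread grows where the line difference changes with treatment. Agreement in direction therefore adds no separate support to the calls. These calls rest on the RA libraries as well: without shCtbp2_RA the same model called 0 genes in either direction, with 781 genes at an unadjusted p under 0.05, and without shRxr_RA it called 32 higher and 53 lower. After the correction it called 11 and 5.

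The difference in RA overlapped with that untreated only in part. Of the genes higher in RA 92 were also higher untreated, which is 12.7% of the RA list and 42.4% of the untreated list. Of those lower in RA 125 were also lower untreated, 4.55% and 28.2%. Over all genes tested, 1.76% were higher and 3.59% lower untreated, and 5.89% and 22.3% in RA. The overlap of the lower genes is thus near the shares over all genes. Among the genes higher in RA 376 (51.8%), and among the lower 2006 (73.1%), had an untreated difference smaller than 0.32 on the log2 scale. Such small differences were common among all genes tested. The lower and upper quartiles of the untreated difference were -0.13 and 0.19 in the fifth with the lowest GC content. In the fifth with the highest they were -0.39 and 0.12. The 51.8% and 73.1% are therefore not read as a trait of the genes called in RA. Of these the highest with a mean of at least 50 were Stra6, Cyp26b1, Ifrd2 (762.1 and 151.7 in RA), Mall, a raft-associated membrane protein (473.1 and 93.4), Tspo, a mitochondrial outer membrane protein (239.5 and 49.2), and Prss50 (187.1 and 39.2). Mall stood at 9.10 and 9.21 untreated, so it was low in both untreated libraries and high in both RA libraries. Across genes the Spearman correlation of the RA with the untreated difference was 0.08, and 0.24 after both were corrected.

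**Figure D5:**
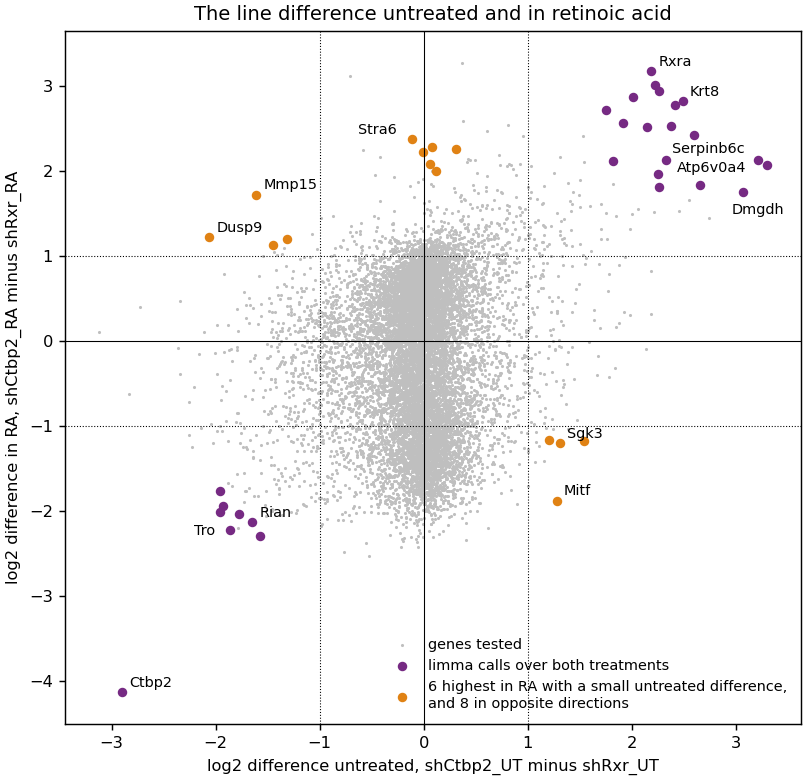
Log2 difference shCtbp2 minus shRxr of each tested gene, untreated (horizontal) and in RA (vertical), on the normalised reads + 10 scale; dotted lines mark 2-fold. Purple points are the 27 limma calls over both treatments. They lie past 2-fold in the same direction on both axes, which the test favours by construction. Orange points are genes high in RA alone (Stra6 at 2.37) or in opposite directions (Mmp15 at 1.72 in RA).

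By chromosome, the X had the largest share of lower genes among the numbered and sex chromosomes, 39.9% of 431 tested, and a median GC content of 45.6%; after the correction the share was 6.51%, against 4.82% of all genes. Of 156 tested long intergenic noncoding RNAs 49 (31.4%) were at least 2-fold lower and 1 higher, with a median of -0.64, and -0.51 after the correction for the 82 with a GC value. Protein-coding genes had 22.2% lower.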

How the data were processed

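TruSeq RNA libraries were sequenced on a HiSeq 2000 instrument, per the labels' protocols. The submitters' processing notes name TopHat 1.4, mm9 and HTSeq, and the deposited genes carry Ensembl identifiers. The counting mode and the strand setting are not given in those notes, so reads of overlapping or antisense genes may be mixed. The deposited values are log2 values of reads scaled to 10000000 per library, plus 1, as read from the values: they unlog to whole reads for 100% of values within 1e-06 of a read. All 6 columns matched a library by name.

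Levels are unlogged values. Differences were taken on log2(value + 10) for 12332 genes with a mean of at least 20. Intervals of folds are exact binomial (Clopper-Pearson, 95%) on the recovered reads and cover counting error only. The floor of 3 reads is 2.97 normalised reads in shCtbp2_RA and 3.01 in shRxr_RA. The correction subtracted natural splines (5 degrees of freedom each) of the GC content and length of the longest GENCODE M21 transcript of each Ensembl gene, given for 98.4% of tested genes. The trend model of limma (version 3.58.1 in R 4.3.3) took treatment and line as terms over 6 libraries. It had 2 residual degrees of freedom and Benjamini-Hochberg adjustment over all genes. Its p-values set the line difference averaged over both treatments against how far line differences change between the treatments. They do not measure the spread between replicate cultures. On simulated data with 12332 genes, 79% of 100 genes changed 2-fold and 100% of 100 changed 4-fold were recovered, and 2.19% of calls were false. Each changed gene had the same line effect in both simulated treatments. The simulation held no RA effect and no trend with GC content or length. Its rates therefore do not carry over to the calls in these data. Python 3.11.15 was used with pandas 2.3.3, scipy 1.17.1, matplotlib 3.10.9 and numpy 2.4.6.

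The genes and lists were chosen with earlier results of these data known. The named genes are, by rule, the targets with their paralogs and Krt8; the 12 highest and 12 lowest (8 and 8 after the correction) with a mean of at least 50; up to 4 members per list by size of the difference, with members its background needs; the 6 most alike in direction in both treatments, and the 6 largest with an untreated difference under 0.32; up to 4 each way in opposite directions, by the smaller difference; the 5 limma calls each way with the lowest adjusted p; and the genes at the minimum. The other limma calls, Rbbp4 and Zfpm1 were named after their values were seen. Some genes that this rule names are not reported here. Alternatives changed the value added before the log, the minimum, the scaling, the libraries and the fold.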

Additional observations from a re-analysis of the deposited data

Results flagged for a closer look

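For 11 tested genes the lines differed by at least 2-fold higher in RA and lower untreated, and for 14 the other way round; given here are the 4 each way whose smaller difference of the pair is largest in size. In all of them 1 library a group was available, so the difference between the treatments was not tested. Higher in shCtbp2_RA and lower in shCtbp2_UT were Mmp15, a membrane-bound metalloproteinase (log2 difference in RA 1.72, untreated -1.61), the MAP kinase phosphatase gene Dusp9 (1.22 and -2.06), Lgals1, which encodes galectin-1 (1.20 and -1.31), and the prostaglandin E synthase gene Ptges (1.13 and -1.45). Mmp15 went from 43.0 to 1766 normalised reads between shCtbp2_UT and shCtbp2_RA, and from 151.5 to 527.3 between the shRxr libraries. Dusp9 stood at 22191 in shCtbp2_RA and 9527 in shRxr_RA, and untreated at 1010 and 4232. Corrected for GC content and length, the RA differences were 1.43 for Mmp15, 0.82 for Ptges, 0.56 for Dusp9 and 0.31 for Lgals1.

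Lower in shCtbp2_RA and higher in shCtbp2_UT were the transcription factor gene Mitf (-1.88 and 1.28), the kinase gene Sgk3 (-1.20 and 1.31), Ccdc141 (-1.18 and 1.54) and Nudt12 (-1.17 and 1.21). Mitf stood at 24.7 and 117.5 in RA and at 476.4 and 190.8 untreated. These 4 genes have GC contents between 38.9% and 43.4%, and their corrected RA differences were -0.89, -0.26, 0.22 and -0.20.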

How the results depend on the processing

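The count of genes at least 2-fold higher in RA (726) was 393 with 50 added before the log, 1290 at equal upper quartiles, 1130 with the median of ratios and 425 once corrected for GC content and length; the count lower (2745) was 585 after the correction. At 1.5-fold the counts were 2768 and 4294, and at 4-fold 44 and 108. The limma calls (19 higher, 8 lower) were 0 and 1 with no minimum, 5 and 1 at a mean of at least 100, 45 and 30 at equal upper quartiles, 36 and 19 with the median of ratios, 11 and 5 after the correction, 0 and 0 without shCtbp2_RA, and 32 and 53 without shRxr_RA. The lower calls were 3 with 50 added, 3 with only the 4 libraries of these lines and 3 with voom on the recovered reads. Where a left-out library leaves 1 sample in a line, that sample is assumed to vary like the others. Without shRxr_RA, and with only the 4 libraries, limma gave every gene the spread of the common trend. The main fit and the fit without shCtbp2_RA kept part of each gene's own spread. Counts from these fits are therefore not directly comparable. With no minimum, 2168 genes had an unadjusted p under 0.05, and without shCtbp2_RA 781 did. Of 164 named genes at least 2-fold different, 135 stayed so with 50 added, 155 at equal upper quartiles, 159 with the median of ratios and 73 of 162 after the correction, where Ccdc141 (0.22) changed direction; beyond what their construction shows, the cause was not tested. No paired analysis was possible because each line and treatment has 1 library and so no replicate number to block on; treatment is already a term of the limma model. At this depth a gene near the minimum rests on few reads: Trim21, with 20 and 25 in the RA libraries, differed by 1.27-fold with an interval of 0.677 to 2.41.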

Other observations

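Some genes outside the lists' 2-fold counts in RA differed between the untreated lines. Esrp1, a splicing factor of epithelial cells, stood at 438.4 in shCtbp2_UT and 88.7 in shRxr_UT (4.94-fold higher, 4.004 to 6.15), against 42.6 and 32.1 in RA. The desmosome gene Dsp stood at 2106 and 973.4 untreated and at 881.9 and 964.3 in RA. Otx2, a regulator of the anterior epiblast, stood at 1078 and 387.5 untreated (2.78-fold higher, 2.50 to 3.10) and at 61.4 and 42.2 in RA. Msx2, a BMP-responsive homeobox gene, stood at 50.5 and 259.5 untreated (5.14-fold lower, 3.90 to 6.88) and at 384 and 427.9 in RA. These genes were chosen after their values were seen.

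Once corrected for GC content and length, genes beyond those already described came among the highest and lowest. Atp5l, a subunit of the ATP synthase, stood at 288 and 136.6 in RA, with a log2 difference of 1.02 that was 2.34 after the correction, and Lass4, a ceramide synthase, at 109.9 and 55.2 (0.88 and 2.31). Among the lowest were the homeobox gene Nkx6-3 (8.91 and 46.2; -1.57 and -2.28), Ttll6 (71.3 and 316.4; -2.01 and -2.15), Gm14136, Gm11847 and 1700030C10Rik. Of 13 tested genes of the neuroectoderm list 3 were at least 2-fold higher in RA and 5 lower, and after the correction 1 was higher and 3 lower. The shares over all genes were 5.89% and 22.3% in RA, and 3.5% and 4.82% after the correction. The intermediate filament gene Nes stood at 99.97 and 325.4 in RA (corrected -1.67) and Ncan at 15.8 and 72.3 (corrected -1.61), while Sox3 stood at 260.3 and 61.3 (corrected 1.19).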
